A study of Mus musculus with 10 samples.

Results

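Cells that had been exposed to erythropoietin (EPO) for 3 days and still carried high surface Sca1 were compared with untreated cells of the same line. The comparison took 2 of the 10 arrays of the series, 1 on each side. The cells were EML-C1, an established mouse blood progenitor line that is 1 clone, depends on stem cell factor and can be steered to red cell or myeloid fates. The untreated sample was taken on day 0. The other array held the Sca1-high fraction of a culture given 10 ng/ml EPO in growth medium and sorted on day 3. Both cultures shared a growth medium with horse serum and BHK/MKL conditioned medium. The remaining 8 arrays held EPO Sca1-low cells of day 3, cells after 6 days of EPO, and the Sca1-high, Sca1-low and day 6 samples of 2 other treatments. These were IL-3 at 10 ng/ml with all-trans retinoic acid (ATRA) at 10 µM, to which GM-CSF at 10 ng/ml was added after day 3, and the combination of all factors with EPO. The series text speaks of duplicates, and second samples were not analysed here.

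With 1 array per condition there was no replicate spread and no test, and every difference below compares 2 arrays, not 2 conditions with known error. The untreated sample carries no Sca1 fraction in its label. The 2 arrays lay on different slides, so EPO, 3 days of culture, the Sca1 sort and the slide cannot be told apart. A lower signal can come from fewer cells of a type or from less RNA per cell, which bulk RNA does not separate. A level here is the log2 signal of a gene's probe minus the 75th percentile of its array, and a difference is the EPO Sca1-high level minus the untreated level. A gene was called higher or lower when the 2 arrays were at least 2-fold apart and the brighter spot was well above background. Where the dimmer spot was not, the fold could only be bounded, using the dimmest signal that counted as above background, and is written "at least".

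EPO binds the EPO receptor on erythroid progenitors, and the receptor passes the signal through the kinase JAK2 to the transcription factor STAT5. STAT5 switches on survival and proliferation genes together with inhibitors of its own pathway, among them Cish and the Socs genes, whose products shut the receptor down again. Sca1, the product of Ly6a, is a membrane-anchored surface protein that marks stem and early progenitor cells and is lost as EML cells become erythroid.

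STAT5 binds a short palindrome, TTCNNNGAA. The windows that hold it are shown for all genes of the STAT5 list that hold it, whether called or not. They come from RefSeq on GRCm38.p6, within 250 bases before to 50 bases after an annotated gene start. Of the STAT5 target and feedback genes, 18 had a window and 4 held the palindrome (22.2%), against 9.55% of all 27025 genes with a window. Counted by window, it stood in 20.0% of the list's 25 windows and in 8.3% of all 32851, on 1 strand since the palindrome reads the same on both. Capitals mark the fixed letters of the motif, and sequences run 5′ to 3′ on the gene's strand.
Cish, chr9:107296654-107296683, plus strand: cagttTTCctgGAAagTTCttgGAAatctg
Socs3, chr11:117969502-117969530, minus strand: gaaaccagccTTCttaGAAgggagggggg
Irf8, chr8:120736186-120736214, plus strand: tTTCtcgGAAagagagcgcTTCagaGAAg
Bcl6, chr16:23988952-23988980, minus strand: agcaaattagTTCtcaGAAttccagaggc
Bcl6, second start, chr16:23981433-23981461, minus strand: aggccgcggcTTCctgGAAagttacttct
In Cish a pair of palindromes began at bases 1 and 12 counted from the annotated start, in tandem. The Socs3 match began at base -154. Those of Irf8 began at -171 and -153. The second Bcl6 window held 3 matches, at -168, -122 and -88, of which the first is shown. These are matches of letters and not measured binding sites. Cish and Socs3 were called higher, with differences of 3.82 and 1.09, while Irf8 (0.57) and Bcl6 (-0.59) were not called.

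The EPO Sca1-high cells stood closer to untreated cells than any other treated array did. Of 13407 genes measured on at least 1 of the 2 arrays, 609 (4.54%) were higher in EPO Sca1-high cells and 282 (2.10%) were lower, or 6.65% in all. The same count against the untreated array took in 38.7% of measured genes for EPO Sca1-low cells of the same culture and 27.3% for EPO day 6. The remaining treated arrays lay between 14.9% (combined day 6) and 23.7% (combined Sca1-low), with 20.0% for IL-3/GM-CSF day 6. These counts share 1 untreated array. Set against the other arrays directly, EPO Sca1-high cells differed in 29.4% of genes from EPO Sca1-low cells and in 14.3% from IL-3/ATRA Sca1-high cells. The median difference of all measured genes was 0.02. Among the 12443 genes well above background on both arrays, the 5th and 95th percentiles were -0.65 and 0.71, and 2.23% were called higher and 1.06% lower.

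**Figure D1:**
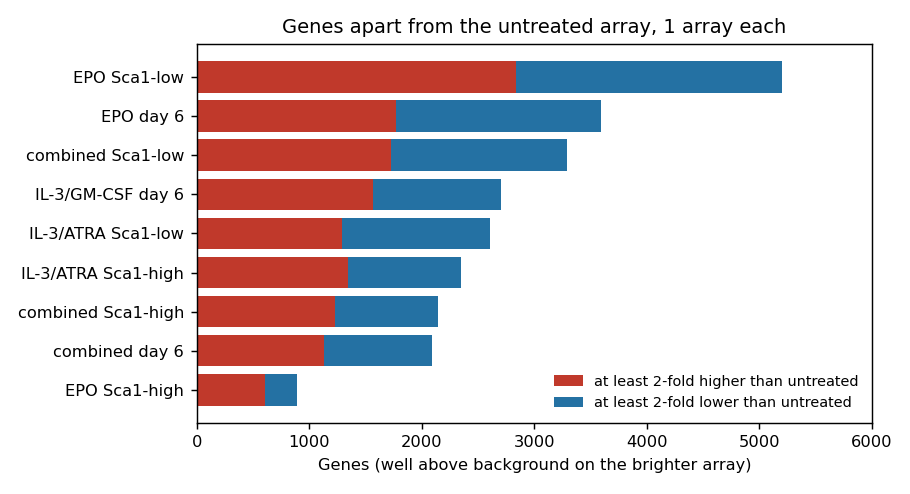
Number of genes at least 2-fold higher (red) or lower (blue) than the untreated array for each of the 9 treated arrays, with 1 array per condition and no error. EPO Sca1-high has the shortest bar, 891 genes, and EPO Sca1-low the longest, 5201.

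The balance between higher and lower calls moved with the scaling. Higher genes were 68.4% of the calls, 57.2% after quantile normalization (488 higher, 365 lower) and 46.4% when each array was centred on its median (444 higher, 513 lower), which moved the median of all genes from 0.02 to -0.18. Background correction by normexp together with quantile normalization left 194 higher and 89 lower. Just inside the threshold lay Pdzk1 (1.0001) and Ifitm6 (1.0005), and just outside it Cilp2 (0.9996) and Dclk1 (0.9969). On the lower side Klk1b1 (-1.003) was just inside and Ppp2r3a (-0.9982) just outside. The extraction software rated the untreated array as in range and the EPO Sca1-high array as one to evaluate. Repeat spots had a median SD of 0.04 and 0.09 log2 on them, and 12897 and 12975 genes were well above background.

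**Figure D2:**
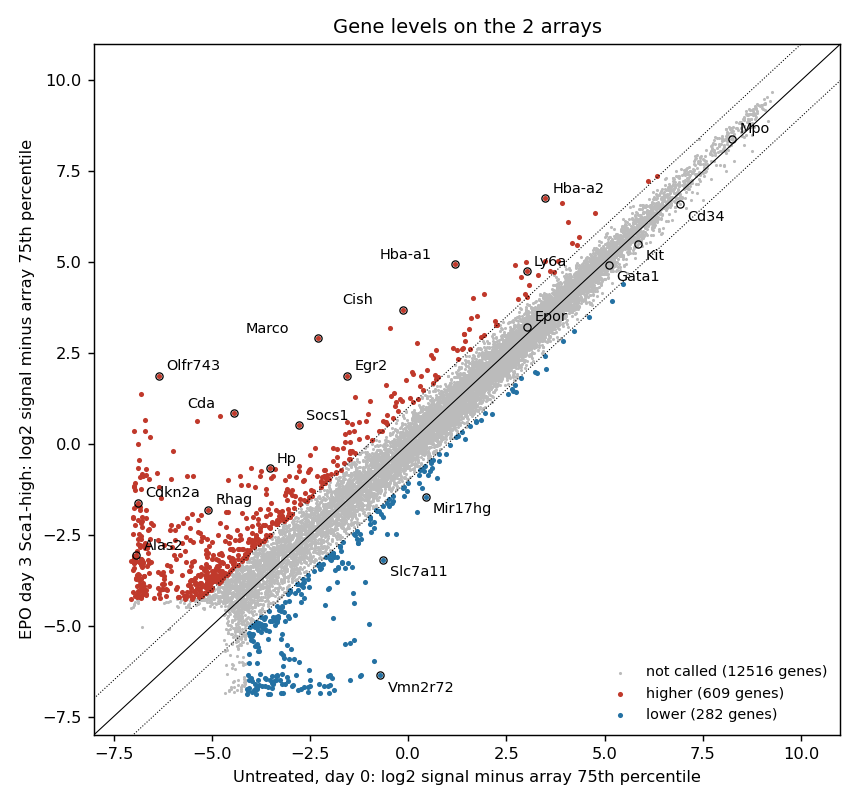
Level of each of 13407 genes on the untreated array (x axis) and the EPO Sca1-high array (y axis), in log2 units relative to the array's 75th percentile. Dotted lines mark a 2-fold distance. Cish, Marco, Cda and the alpha globins lie far above the diagonal, while Mpo, Cd34, Kit, Gata1 and Epor lie on or near it, and the flat edges at the lower left are genes dim on one array.

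Cytokine feedback and STAT5 target genes were the list furthest above zero. Of 23 measured members, 10 (43.5%) were higher, against 4.54% of all genes, and none was lower. The median difference was 0.93 against 0.02 for all genes. It stayed between 0.57 and 0.93 over 9 alternative processings. Cish, a feedback inhibitor induced by STAT5, went from a level of -0.13 to 3.69, which is 14.1-fold. All 8 other treated arrays were higher still, from 4.34 to 6.07. So untreated cells were the low point for Cish and EPO Sca1-high cells the lowest of the treated ones. Socs1, an inhibitor of JAK kinases, went from -2.78 to 0.51 (9.81-fold), and the other treated arrays ranged from -0.94 to 1.46. Socs2 was 2.62-fold and Socs3 2.12-fold higher. For Socs3, the EPO Sca1-high level of 2.34 was the highest of the 10 arrays.

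The PIM kinases, survival kinases downstream of STAT5, did not all behave alike. Pim2 went from -0.55 to 1.63 (4.55-fold), and its level was again the highest of the 10 arrays, with IL-3/ATRA Sca1-high next at 1.38. Pim1 was 2.94-fold higher, but here every other treated array lay above the EPO Sca1-high level of -0.10. Pim3 differed by 0.40 and was not called. Id1, an inhibitor of basic helix-loop-helix factors, was 4.72-fold higher, and Osm, which encodes oncostatin M, at least 2.36-fold. Osm lost its call under normexp with quantile normalization, and where both arrays had to be well above background. Cdkn1a, the cell cycle inhibitor p21, passed the threshold with 2.01-fold, and it lost the call under 4 of 10 alternatives, among them quantile normalization and centring on the median. Myc (0.95), Il4ra (0.93) and Bcl2l1 (0.52), the BCL-XL gene, stayed under 2-fold.

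The receptor and its signalling chain gave no call. Of 24 measured genes of the EPO receptor pathway, none was higher or lower, and the median difference was -0.08. With 6.65% of all measured genes called, 0 of 24 is not far from that share. Epor itself was at 3.02 in untreated and 3.23 in EPO Sca1-high cells. Jak2 differed by -0.50, Stat5a by -0.06 and Stat5b by -0.03. The range ran from Cbl (-0.80), an adaptor that marks receptors for degradation, to Pik3cd (0.48), a PI3-kinase subunit. Epor stood between 4.73 and 5.38 in all Sca1-low arrays and at EPO day 6, so its level in EPO Sca1-high cells was near that of untreated cells and below those.

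Some erythroid products were much higher. The alpha globin gene Hba-a1 went from 1.19 to 4.95 (13.5-fold), and Hba-a2 from 3.48 to 6.76 (9.70-fold). These copies are nearly identical, so their probes may read each other's transcripts. The beta globins were far less apart: Hbb-b2 differed by 0.82, Hbb-bs by 0.36 and Hbb-bt by 0.30, none of them called. Both alpha globins stood well below EPO Sca1-low cells, where Hba-a1 reached 9.08, and close to the other Sca1-high arrays, where Hba-a1 was at 4.71 and 5.33.

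Among 21 measured erythroid factors, 1 (4.76%) was higher and none lower, a share near the 4.54% of all genes. The exception was Trim58, a ubiquitin ligase that acts late in erythroid maturation, at 5.82-fold (-3.49 to -0.95). Gata1, the erythroid master factor, was at 5.11 and 4.92. Klf1, the activator of globin genes, went from 1.76 to 2.60, a difference of 0.85, which was not called. In EPO Sca1-low cells Klf1 stood at 6.07.

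Of 19 measured surface and membrane skeleton genes of red cells, 3 (15.8%) were higher and 1 (5.26%) lower. Of all genes, 4.54% were higher and 2.10% lower. The list's median was 0.43. Rhag, the ammonia channel of the Rh complex, went from a level not well above background to -1.81, at least 9.78-fold. Rhd was 3.44-fold and Gypc (glycophorin C) 2.15-fold higher. The call of Gypc was lost under 3 of 10 alternatives. In the haem and iron list 1 of 28 members (3.57%) was higher, near the 4.54% of all genes. This was Alas2, the first enzyme of haem synthesis in erythroid cells, at least 4.56-fold. Alad (0.63), Cpox (0.62) and the transferrin receptor Tfrc (-0.11) were not called. The median of this list was 0.14 and turned to -0.06 when arrays were centred on their median.

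**Figure D3:**
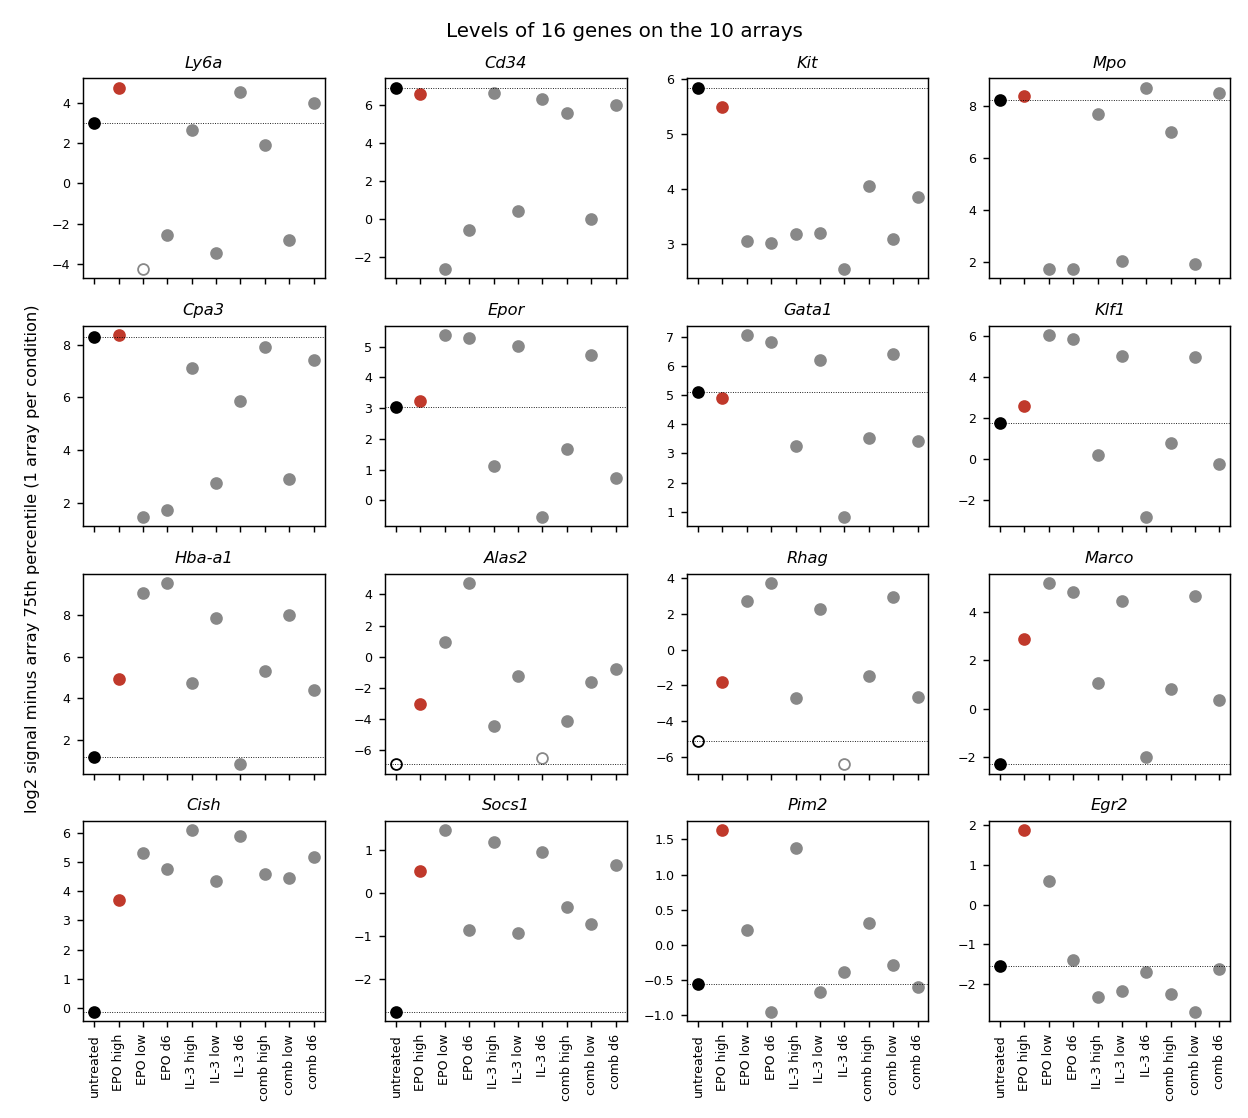
Levels of 16 genes on the 10 arrays (log2 relative to the array's 75th percentile, 1 array per condition). Untreated is black, EPO Sca1-high red and the other arrays grey, an open circle is not well above background, and the dotted line marks the untreated level. Cd34, Kit, Mpo, Cpa3, Epor and Gata1 in EPO Sca1-high cells lie close to the untreated level, Kit differing most of these with -0.35, whereas Hba-a1, Rhag, Marco, Cish and Socs1 lie more than 3 log2 units above it.

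The progenitor markers Cd34, Kit and Gata2 stayed near their untreated levels, and Sca1 mRNA was above its own. Ly6a went from 3.02 to 4.76 (3.34-fold), the highest of the 10 arrays. In the EPO Sca1-low fraction it was at -4.25 and not well above background, so the sort label and the transcript match in direction. Cd34 was at 6.92 and 6.59, and Kit, the stem cell factor receptor, at 5.85 and 5.50. All other treated arrays had Kit between 2.53 and 4.06. Gata2, a progenitor and mast cell factor, was at 5.01 and 5.12. Of 31 measured stem and progenitor genes, 1 (Ly6a, 3.23%) was higher and 1 (3.23%) lower. These shares are not far from the 4.54% and 2.10% of all genes. The lower one was Angpt1, the TIE2 ligand angiopoietin 1, from 2.64 to 1.52. Hmga2, a chromatin protein of fetal stem cells, was at 4.80 and 4.20, while no other treated array exceeded 1.78.

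Some other members of the Ly6 family, which sits in a cluster with Ly6a, were higher too. Of 14 measured with Ly6a included, 4 (28.6%) were higher, against 4.54% of all genes, and none was lower. Ly6a, whose product the cells were sorted on, is among the 4. Ly6d was 4.53-fold, Ly6f 3.63-fold and Ly6c1 2.56-fold higher. The levels did not move in step across the series. Ly6d was higher still in EPO Sca1-low cells (4.09 against 0.61), where Ly6f (-5.80) was not well above background. The 2 measured probes of Ly6c1 differed by 0.56 and 1.36, and averaging them ended its call.

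Granule genes of the myeloid lineage stayed on. Mpo, myeloperoxidase, was at 8.24 and 8.40, and Ctsg, cathepsin G, at 8.09 and 8.67. In EPO Sca1-low cells they stood at 1.71 and 1.34. Of 13 azurophil granule genes, 1 (7.69%) was higher, against 4.54% of all genes. It was Hp (haptoglobin), from -3.53 to -0.66 (7.29-fold). Among 19 measured late neutrophil genes, 2 (10.5%) were higher and 1 (5.26%) lower, against 4.54% and 2.10% of all genes. Ltf (lactoferrin, 4.12-fold) and Fpr1 (the formyl peptide receptor, 2.54-fold) were higher and Cd177 at least 2.36-fold lower. S100a9 and Stfa1 were not well above background in untreated cells and were not called (0.74 and 0.86 against the background limit). Cebpa differed by 0.95 and Spi1, the PU.1 gene, by 0.07.

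Mast cell and basophil genes were also retained, with a few moving in each direction. Cpa3, the mast cell carboxypeptidase, was at 8.28 and 8.36. Of 28 measured members 6 (21.4%) were higher and 2 (7.14%) lower, against 4.54% and 2.10% of all genes. Higher were Tph1 (4.45-fold), which makes serotonin, the protease Mcpt1 (3.54-fold), Il13 (3.17-fold), Hdc (2.55-fold), which makes histamine, Il4 (2.27-fold) and the basophil protease Mcpt8 (2.26-fold). Tph1, Mcpt1, Il13, Hdc, Il4 and Mcpt8 each had their highest level of the 10 arrays in EPO Sca1-high cells. Hpgds, the prostaglandin D synthase, was 2.42-fold and Cd200r3 3.10-fold lower. The list's median was 0.14, and its sign changed under 3 of 9 alternatives.

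The monocyte and macrophage list held the gene with the largest difference among those well above background on both arrays except Cda. Marco, a scavenger receptor of macrophages, went from -2.30 to 2.90 (36.7-fold). It stood at 5.20 in EPO Sca1-low and 4.80 in EPO day 6 cells, and at 1.06 and 0.82 in the Sca1-high cells of the IL-3/ATRA and combined treatments. Of 28 measured members 5 (17.9%) were higher, against 4.54% of all genes, and none was lower. The others were Cd74 (3.45-fold), the invariant chain, Msr1 (3.32-fold), another scavenger receptor, Ly6c1, and the chemokine Ccl4 (2.38-fold). The defining monocyte markers Cd14, Mrc1 and C1qa were not well above background on either array. Csf1r differed by 0.92.

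Lymphoid, eosinophil and platelet lists each gave at most 1 call, and with so few members this is not far from the 6.65% of all measured genes. None of 11 measured B lymphoid genes was called, and Cd79a, Pax5 and Ebf1 were not well above background on either array. Cd79b and Dntt were well above background on both arrays, at 0.58 and 1.02 in EPO Sca1-high cells. Of 16 T and NK genes 1 was lower, Notch1 (2.70-fold), with its call kept under 8 of 10 alternatives. The T cell gene Cd3g was not well above background, while Nkg7 and Cd4 were, at 6.98 and 3.51 in EPO Sca1-high cells. Of the 16 T and NK genes, 12 had a positive difference, and the list's median was 0.44. Prg3, an eosinophil granule gene, was 2.33-fold higher as 1 of 8. Tbxa2r, the thromboxane receptor, was the only 1 of 29 megakaryocyte genes, at least 2.26-fold higher, and lost the call under 4 of 10 alternatives. The part of other cell types in the differences was not tested.

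**Figure D4:**
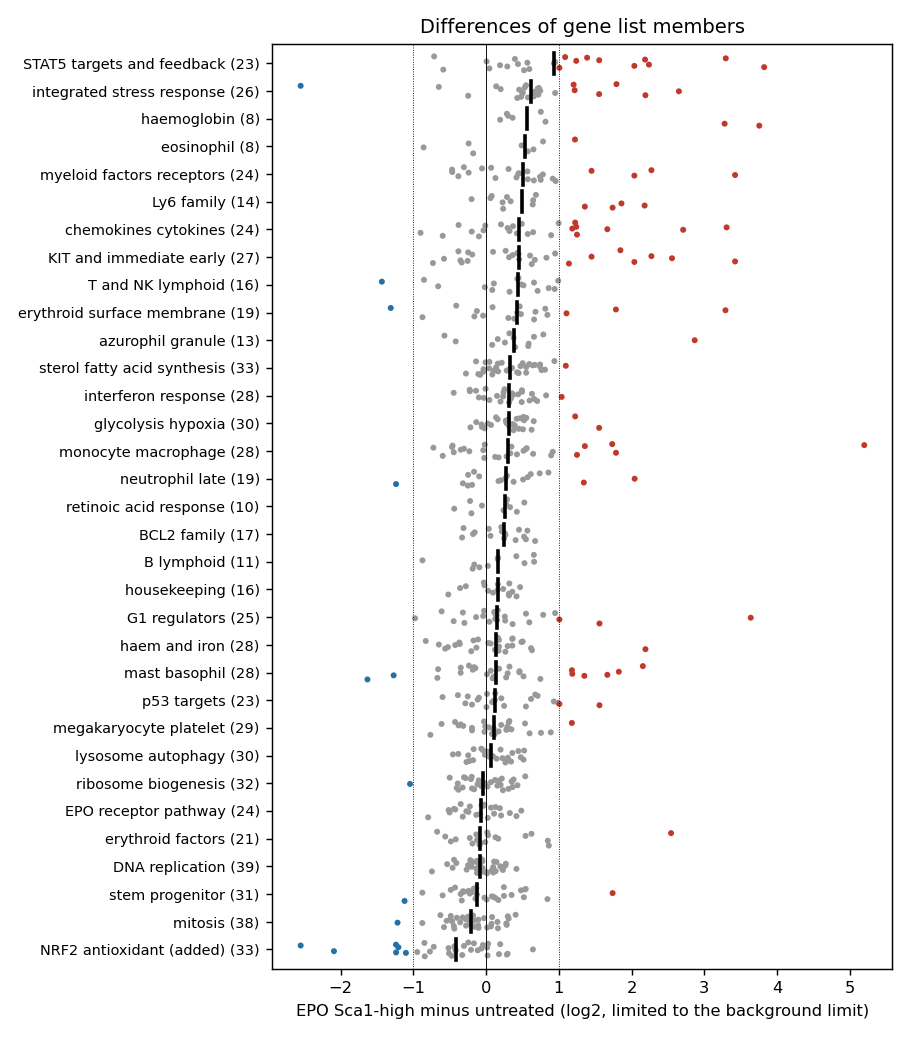
Difference of each measured member of 33 gene lists between EPO Sca1-high and untreated (log2, limited to the background limit where one side was dim), with the number measured in brackets. Points are genes, red called higher and blue called lower, black bars are list medians and dotted lines mark 2-fold. STAT5 targets lie furthest to the right with a median of 0.93 and the NRF2 antioxidant genes, added after values were seen, furthest to the left with -0.42.

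Some immediate early genes, which growth factors switch on within minutes, were higher. They were listed together with genes of KIT signalling. Of 27 measured on this joint list, 7 (25.9%) were higher, against 4.54% of all genes, and none was lower. The joint list's median of 0.45 lay between 0.25 and 0.45 under 9 alternatives. Egr2 went from -1.55 to 1.87 (10.7-fold), and the next highest arrays were EPO Sca1-low at 0.59 and EPO day 6 at -1.39. Ier2 was 5.88-fold, Junb 4.83-fold, Zfp36 3.59-fold, Jun 2.73-fold and Dusp2 2.20-fold higher. Egr1, at 4.08 and 6.11 (a difference of 2.04), and Dusp2, at 6.10 and 7.24, had their highest levels of the series in EPO Sca1-high cells. Egr2, Junb, Egr1 and Jun are also members of the list of myeloid factors and receptors, where they were the 4 of 24 (16.7%) called higher. Egr1 is also 1 of the 10 higher genes of the STAT5 list.

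Genes of the integrated stress response, in which ATF4 is translated when amino acids or haem run short, leaned to the higher side. Their difference was positive for 23 of 26. Of 26 measured, 6 (23.1%) were higher and 1 (3.85%) lower, against 4.54% and 2.10% of all genes. Higher were Nupr1 (6.28-fold), Chac1 (4.56-fold), Trib3 (3.46-fold), Ddit4 (2.93-fold), Ppp1r15a (2.32-fold) and Stc2 (2.30-fold). The median of 0.62 lay between 0.42 and 0.62 under the alternatives. The exception was Slc7a11, the cystine transporter, which went from -0.65 to -3.20 (5.86-fold lower).

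Slc7a11 is also a target of NRF2, the regulator of antioxidant genes, and other such targets were lower with it. This list was written after their values had been seen and therefore describes only. Of 33 measured genes 6 (18.2%) were lower, against 2.10% of all genes, and none was higher. The median was -0.42, with a range of -0.62 to -0.28 under 9 alternatives. Gsta3, a glutathione transferase, went from 0.23 to -1.86. Srxn1, which repairs peroxiredoxins, went from 5.18 to 3.94. Both subunits of the enzyme that starts glutathione synthesis were lower, Gclm from 3.22 to 1.98 and Gclc from 4.61 to 3.50. Nqo1, a quinone reductase, went from 1.85 to 0.65. For Slc7a11, Srxn1 and Gclc none of the 9 treated arrays exceeded the untreated level, while Gclm stood at 4.44 and Nqo1 at 2.64 in EPO day 6 cells. Nfe2l2, which encodes NRF2, differed by 0.01, and Hmox1 by -0.43.

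Of 24 measured genes of the chemokine and cytokine list, 7 (29.2%) were higher, against 4.54% of all genes, and none was lower. The cytokine gene Il9, at least 14.8-fold lower, is not on that list. Lif, leukaemia inhibitory factor, was at least 9.89-fold higher and was not well above background in untreated cells. Il10 went from -4.59 to -1.88 (6.53-fold) and was at 2.15 in EPO Sca1-low cells. Vegfa was 2.34-fold higher. Il13, Il4, Ccl4 and Osm completed the set.

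Proliferation genes were mostly not called, like 93.4% of all measured genes. None of 39 DNA replication genes was called, with a median of -0.09. Of 38 mitosis genes 1 (2.63%) was lower, Cenpf (2.33-fold), with a median of -0.21. Both medians stayed below 0 under 9 alternatives. Among 32 ribosome biogenesis genes 1 (3.12%) was lower, Nop58 (2.07-fold). Of all genes, 2.10% were lower, so these counts are not far from that share. Cdkn2a, which encodes the p16 and p19 inhibitors, was at least 12.4-fold higher, from a level not well above background to -1.62. It was well above background on 2 other arrays only, IL-3/ATRA Sca1-high (-3.57) and IL-3/GM-CSF day 6 (-0.71). Btg2, an antiproliferative p53 target, was 2.94-fold higher.

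One of the lower genes is a microRNA host. Mir17hg carries the miR-17 to miR-92 cluster, a set of growth-promoting microRNAs, and it is named here after its values were seen. Its level went from 0.44 to -1.46, which is 3.73-fold lower. EPO Sca1-high was the lowest of the 10 arrays, followed by EPO Sca1-low at -0.76. The array read the host transcript and not the mature products. Their sequences, from RefSeq on GRCm38.p6 chromosome 14, show which of them share a target-recognising seed (bases 2 to 8, in capitals).
miR-17-5p: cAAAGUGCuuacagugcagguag
miR-20a-5p: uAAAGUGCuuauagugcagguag
miR-18a-5p: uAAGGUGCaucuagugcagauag
miR-19a-3p: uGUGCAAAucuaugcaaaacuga
miR-19b-3p: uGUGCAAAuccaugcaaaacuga
miR-92a-3p: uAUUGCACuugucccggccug
miR-17-5p and miR-20a-5p have 1 seed in common and so do miR-19a-3p and miR-19b-3p, which leaves miR-18a-5p and miR-92a-3p with seeds of their own.

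Many of the largest differences were set against a spot not well above background, and some belonged to genes seen on a single array. Of 65 genes at least 8-fold higher, 24 were well above background in EPO Sca1-high cells alone. Of the 609 higher genes, 277 were well above background on both arrays and 332 only in EPO Sca1-high cells. Of these, 109 (17.9% of the higher genes) were well above background on no other array of the series. Olfr743, an olfactory receptor gene, led with at least 141-fold, followed by Lypd11 (at least 99.9-fold), Drc1 (at least 60.6-fold) and Dach2 (at least 58.8-fold). Olfr743 was at 1.88 in EPO Sca1-high cells and between -7.30 and -4.31 on all other arrays, none of them well above background. Dach2, Rbbp9 and Spata16 showed the same picture. Olfactory, vomeronasal and trace amine receptor genes, a grouping made with the values in view, made up 68 of the higher genes, 26.9% of the 253 measured, against 4.54% of all genes. Of these, 17 were on this array alone. A further 18 receptor genes (7.11%) were lower, against 2.10% of all genes.

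On the lower side, 7 of 16 genes at least 8-fold lower were well above background on the untreated array alone. Of all 282 lower genes, 132 were well above background on both arrays, and 56 (19.9%) were well above background on the untreated array alone. Vmn2r72, a vomeronasal receptor gene, was at least 21.0-fold lower, Taf9b at least 18.8-fold and Acta1, skeletal muscle actin, at least 15.4-fold. Il9 was at least 14.8-fold lower. Of the 15 lowest genes none was well above background in EPO Sca1-high cells. A filter chosen after seeing the data, which asked for a clear signal on 3 or more of the 10 arrays, left 442 higher and 201 lower genes.

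Other genes with large differences were measured on more arrays. Cda, cytidine deaminase, went from -4.42 to 0.84 (38.5-fold) and was at 1.90 in EPO Sca1-low and 2.14 in EPO day 6 cells, but at -2.72 in IL-3/ATRA Sca1-high cells. Tgfbi, a secreted matrix protein, was at least 49.1-fold higher, and on 5 of 10 arrays it was well above background, namely the Sca1-high and the other day 6 arrays, but not in Sca1-low or EPO day 6 cells. Of the 10 arrays, Crybg1 was not well above background on the untreated one only, and it lay between -1.17 and 0.55 on all 9 others (at least 22.1-fold). Of 165 genes at least 4-fold higher, 23 were well above background on all 10 arrays. Of 44 genes at least 4-fold lower it was 1.

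A second pair of arrays, sharing no array with the first, also differed by EPO among Sca1-high cells of day 3. Here the combined treatment was set against IL-3 with ATRA. Of 14272 measured genes, 5.64% were higher and 5.16% lower. The genes higher in EPO Sca1-high cells than in untreated cells were more often lower than higher in this pair. Of the 453 measured in both, 36 (7.95%) were higher and 96 (21.2%) lower, against 3.48% and 4.02% of all 13008 genes measured in both. The 36 were also 7.95% of all genes higher in the second pair. Of 198 lower genes, 6 (3.03%) were lower and 78 (39.4%) were higher. The median difference in the second pair was -0.53 for the higher and 0.74 for the lower genes, and -0.21 for all. The EPO Sca1-high array lay on 1 slide with both IL-3/ATRA arrays of day 3, so that slide is on the plus side of the first difference and on the minus side of the second. The part of the slide was not tested.

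**Figure D5:**
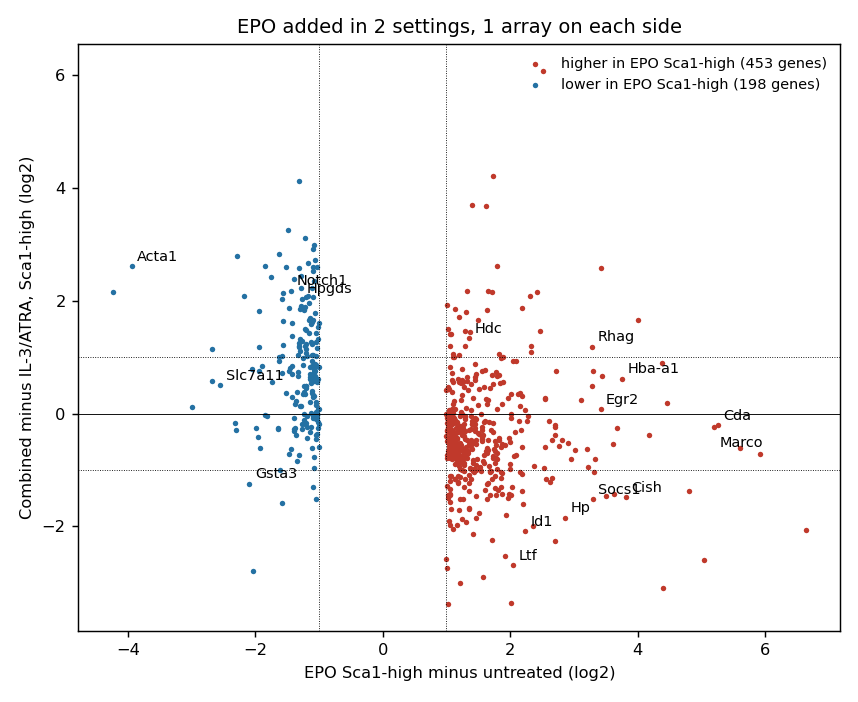
Each point is a gene called higher (red, 453 genes) or lower (blue, 198 genes) in EPO Sca1-high cells and measured in both pairs, with its difference there on the x axis and its combined minus IL-3/ATRA Sca1-high difference on the y axis, both in log2. Dotted lines mark 2-fold. Rhag, Hdc and Gsta3 moved at least 2-fold the same way in both, while Cish, Socs1, Id1, Hp, Ltf, Notch1, Hpgds and Acta1 went in opposite directions.

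Rhag, Gypc, Hdc and Gsta3 were at least 2-fold apart in the same direction in both pairs. Rhag was higher by at least 3.29 in the first and by 1.18 in the second difference, Gypc 2.15-fold in the first and by 1.05 in the second, and Hdc by 1.35 and 1.33. Gsta3 was lower in both, by -2.09 and -1.24. The alpha globins were not called in the second pair, where Hba-a1 differed by 0.62 and Hba-a2 by 0.49. The red cell surface list had a median of 0.43 in the first and 0.45 in the second pair, where 6 of 20 members were higher and 1 lower. The mast cell list had a median of 0.44 in the second pair, with 5 of 28 higher and 2 lower. Of all genes in that pair, 5.64% were higher and 5.16% lower. Other lists went down there. The STAT5 list had a median of -0.66, with 7 of 25 lower, and the late neutrophil list -1.37, with 18 of 29 lower. Neither had a higher member. The leading STAT5 targets, Cish and Socs1, went the other way in the second pair. Cish was at 6.07 in IL-3/ATRA Sca1-high cells and at 4.59 with EPO added, and Socs1 at 1.18 and -0.34. IL-3 is also known to signal through STAT5, and its part in these differences was not tested. Both genes stood above their untreated levels on both arrays of the second pair.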

How the data were processed

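EML-C1 RNA was labelled with Cy3 and hybridised to 1-colour Agilent arrays, per the labels' protocols. The deposited files hold spot intensity, per the file headers, extracted with Agilent Feature Extraction 11.0.1.1 according to the submitters' processing notes. Values of the deposited series matrix equalled the processed intensity of these files. Each array's 75th percentile was subtracted from its log2 processed signals, outlier spots marked by the software were left out, repeat spots were averaged, and the brightest of a gene's probes was kept. RefSeq accessions named 27235 of 55681 probes, giving 20660 genes. Arrays give no read depth, and 1 array per condition limits precision. No test was run.

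Named were the 15 highest and 15 lowest called genes without clone-type symbols, up to 6 members of each of 32 lists with the largest difference, and 13 fixed genes. Any other gene was picked with its values in view, and a few results are not reported here. The members and lists were chosen with earlier results of these data known. The alternatives were run with limma 3.58.1 (R 4.3.3), numpy 2.4.6 and pandas 2.3.3. Normexp used the median spot signal in place of the planned mean signal. Calling was tested on simulated data.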

Additional observations from a re-analysis of the deposited data

Results flagged for a closer look

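Among the genes named here, 23 were at least 2-fold apart in opposite directions in the 2 pairs of Sca1-high arrays that differ by EPO. This difference between pairs was not tested, each side being 1 array. The combined minus IL-3/ATRA differences of cytokine feedback genes were -1.48 for Cish, -1.52 for Socs1, -2.08 for Id1, -1.07 for Pim2 and -1.003 for Osm, all of which were higher in EPO Sca1-high than in untreated cells. Myeloid, surface and stress genes did likewise, with -1.45 for Cd74, -1.85 for Hp, -2.69 for Ltf, -3.01 for Prg3, -1.23 for Ly6c1, -1.04 for Ly6f, -1.15 for Nupr1 and -1.43 for Cdkn2a. Lypd11 (-2.07), Nlrp4f (-2.60) and Cstdc4 (-1.37), among the highest genes of the first pair, were lower in the second.

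Genes lower in EPO Sca1-high than in untreated cells were higher in the second pair by 2.62 for Acta1, 1.27 for Angpt1, 1.004 for Cd200r3, 1.20 for Cenpf, 2.04 for Hpgds, 2.17 for Notch1 and 2.16 for Taf9b.

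Probes without a gene name were left out above. Of 12742 measured, 1051 (8.25%) were higher and 978 (7.68%) lower in EPO Sca1-high cells, against 4.54% and 2.10% of named genes. Of the higher ones 620 and of the lower ones 530 lie in probe sets for genome regions. As with the receptor genes, a dim probe is measured only through a bright spot on the other array, which limits the comparison with named genes.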

How the results depend on the processing

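Of 113 called genes named here, 63 kept their call under all 10 alternatives at the 2-fold threshold. Notch1, Cenpf, Prg3, Vegfa, Ccl4, Fpr1, Cd177 and Cd200r3 were among those that lost it under normexp with quantile normalization. The counts of 609 higher and 282 lower genes became 194 and 89 with normexp and quantile normalization, 1140 and 666 with no filter on dim probes, 277 and 132 where both arrays had to be well above background, and 165 and 44 at 4-fold. Centring on the array median gave 513 lower genes and moved the median of all genes to -0.18, while leaving dim probes in moved it to 0.15. The share of higher genes repeated in the second pair fell from 7.95% to 2.04% under normexp with quantile normalization and to 4.96% with both arrays above background. The share of lower genes repeated went from 3.03% to 8.18% with no filter. The shares over all genes under the same processing are not given here. Whether the repeated shares rose or fell against them cannot be read from these values. Quantile normalization, the series matrix values, the mean of a gene's probes, outlier spots kept, the percentile over probes above background on all arrays and the added filter on 3 arrays left both counts within 1.5 times of these. The cause of the moves was not tested, except that stricter filters hold fewer genes. A shift of 0.1 log2 counted as a move, a stated choice. Signal over background limits the folds of dim genes, which are bounds. No paired analysis was possible because each condition had 1 array and all carry the same replicate number. Leaving out an array would remove a side of the comparison.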

Other observations

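Metabolic and survival genes, outside the groups above, were mostly not called, like 93.4% of all measured genes. Of all genes 4.54% were higher and 2.10% lower, and the counts that follow are not far from these shares. Of 33 sterol and fatty acid genes 1 was higher, Mvd (2.14-fold), an enzyme of the mevalonate pathway. Fdps (0.81), Fdft1 (0.76) and Lss (0.74), further enzymes of that pathway, stayed under the threshold. Another, dimmer Fdft1 probe went the other way, from -2.50 to -5.86, the latter below the background limit. Glycolysis and hypoxia genes had 2 of 30 higher, Ddit4 and Vegfa. None of 17 BCL2 family, 30 lysosome or 10 retinoic acid response genes was called, nor any of 16 housekeeping genes, whose median of 0.16 changed sign under 2 of 9 alternatives. Of 28 interferon response genes, Irf7 was higher (2.05-fold), with its call lost under 3 of 10 alternatives.

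Further genes, picked with their values in view, were well above background on 9 or more of the 10 arrays. Mt2, a metallothionein that binds zinc, went from 3.92 to 6.64 (6.56-fold) and was at 8.49 in EPO Sca1-low cells, while Mt1 differed by 0.99. Tgtp2, an interferon-inducible GTPase, went from -0.48 to 3.20. Clec10a, a lectin of antigen-presenting cells, went from 1.64 to 4.01, and only IL-3/ATRA Sca1-high cells (4.76) were above that. Ephx2, an epoxide hydrolase, went from -4.25 to -1.13 and stood at 3.42 in EPO day 6 cells. Cldn13, a claudin of erythroblasts, went from -1.62 to 0.26 and Samd14 from 0.71 to 2.59, with 5.61 and 4.37 in EPO Sca1-low cells. On the lower side Grk5, a receptor kinase, went from -1.44 to -3.39, its lowest level of the 10 arrays, and Arl4c from 3.28 to 1.94, also its lowest.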
